A study of Mus musculus with 9 samples.

Results

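The 41 genes described here work in the spindle, at the kinetochore and in chromosome condensation, and were followed through 4 stages of mouse megakaryocyte differentiation. They were given as a list of gene symbols, and no measured value of this table entered the rule. Every probe set whose platform annotation names exactly 1 of these symbols was taken, on all 9 arrays. Such probe sets were found for 38 of the 41 genes, 64 probe sets in all out of 22690 on the array. Fbxo5, an inhibitor of the anaphase-promoting complex, Espl1, which encodes separase, and Spc24, a subunit of the Ndc80 complex, had no such probe set. Of the 38 genes, 36 passed the filter on low values and were tested, among 9397 tested genes of 12393 on the array. Cdc25c, a phosphatase that activates Cdk1, and Cenpe, a kinetochore motor, did not pass. The Cdc25c probe set read 5.93 to 31.2 over the 9 arrays, and the Cenpe probe set read 16.0 to 69.2 with 1 array above the filter of 46.7.

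The samples were primary mouse megakaryocytes, the marrow cells that shed platelets, grown from bone marrow or fetal liver in thrombopoietin and sorted by flow cytometry for high surface CD41 and for size by forward scatter. The labels name 3 stages with 2 arrays each, MKP, MK3 and MK4, and a stage MK6 with 3 arrays. The last 3 names match the culture days 3, 4 and 6 on which cells were collected, and no day is given for MKP. The sources used here do not give the strain, genotype, age or pooling of the mice, or the gates that define each stage. Arrays are numbered within a stage in accession order, which only names them. MK6 replicate 1 is the MK6 array whose title carries no number, and MK6 replicates 2 and 3 are those titled replicate1 and replicate2. Nothing says that arrays of 1 stage are separate cultures, and the p-values therefore cover only the spread among these samples, which may be technical.

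Cells that divide condense their chromosomes with condensin and topoisomerase, attach them to spindle microtubules through the kinetochore, and wait until a checkpoint built on Mad2, BubR1 and Bub3 sees every kinetochore attached. The checkpoint holds back Cdc20, the activator of the anaphase-promoting complex, a ubiquitin ligase that marks cyclin B and securin for destruction. Maturing megakaryocytes become polyploid by endomitosis, in which they enter mitosis, condense chromosomes and build a spindle but leave mitosis without completing cytokinesis. Many of these genes are transcribed in late cell cycle from promoters that carry a CHR element (TTTGAA), bound by the MuvB complex, and CCAAT boxes, bound by NF-Y.

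RefSeq's promoter table (GRCm38.p6, 250 bases before to 50 after each annotated start) held 36 of the 41 genes, all but Cdc25c, Spc24, Zwilch, Tpx2 and Smc4. The letters TTTGAA, searched on both strands, stood in the window of 21 of the 36 genes, or 58.3%, against 20.2% of 27025 genes in the table. The letters CCAAT, searched on both strands, stood in 28 of the 36, or 77.8%, against 41.1% of all genes. Both were present in 1 window for 20 of the 36, or 55.6%, against 7.97% of all genes. The motifs were counted separately, and neither is part of the other. The 150 bases before the start are printed for 8 genes, with TTTGAA and CCAAT in capitals in either orientation (TTCAAA and ATTGG on the other strand). Cdk1, Cdc20, Ube2c and Top2a are examples picked without a rule. Their signal was lower on MK6 replicate 1 than on the other MK6 arrays, and their stretches hold both motifs. Ncapg, Ncapd2 and Fzr1 are shown because they passed the test, and Cdc25b because it did not follow the other genes. In this order the stretches are chr10:69352913-69353062 (minus strand), chr4:118437344-118437493 (minus), chr2:164769779-164769928 (plus), chr11:99024190-99024339 (minus), chr5:45669775-45669924 (plus), chr6:125191587-125191736 (minus), chr10:81378371-81378520 (minus) and chr2:131186798-131186947 (plus).
Cdk1: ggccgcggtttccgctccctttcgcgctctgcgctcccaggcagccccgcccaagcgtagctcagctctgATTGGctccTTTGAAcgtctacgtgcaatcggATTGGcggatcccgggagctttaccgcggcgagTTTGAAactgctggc
Cdc20: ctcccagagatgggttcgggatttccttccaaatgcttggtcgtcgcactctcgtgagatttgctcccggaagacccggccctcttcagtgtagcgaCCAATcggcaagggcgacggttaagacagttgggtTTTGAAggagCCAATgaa
Ube2c: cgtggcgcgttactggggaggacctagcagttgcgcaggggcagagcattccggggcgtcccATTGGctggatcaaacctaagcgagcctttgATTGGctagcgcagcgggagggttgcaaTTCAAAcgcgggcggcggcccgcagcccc
Top2a: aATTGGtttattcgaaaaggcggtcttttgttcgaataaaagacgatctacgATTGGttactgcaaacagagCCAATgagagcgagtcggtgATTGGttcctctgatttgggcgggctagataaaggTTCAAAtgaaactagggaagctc
Ncapg: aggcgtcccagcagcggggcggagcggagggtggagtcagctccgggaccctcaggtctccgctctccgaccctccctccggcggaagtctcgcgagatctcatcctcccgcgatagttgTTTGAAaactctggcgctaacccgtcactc
Ncapd2: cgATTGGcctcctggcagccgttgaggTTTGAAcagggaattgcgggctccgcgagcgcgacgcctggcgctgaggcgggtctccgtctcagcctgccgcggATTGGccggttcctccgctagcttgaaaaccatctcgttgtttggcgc
Fzr1: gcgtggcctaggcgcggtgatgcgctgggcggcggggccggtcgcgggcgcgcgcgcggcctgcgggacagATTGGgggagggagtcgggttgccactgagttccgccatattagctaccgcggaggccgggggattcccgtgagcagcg
Cdc25b: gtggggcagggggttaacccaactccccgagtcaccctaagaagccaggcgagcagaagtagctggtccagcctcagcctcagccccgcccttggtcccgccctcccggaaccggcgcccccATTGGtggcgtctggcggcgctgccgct

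The TTTGAA nearest the start began 15 bases before it in Cdk1, 18 in Cdc20, 29 in Ube2c, 23 in Top2a and 30 in Ncapg. In Ncapd2 it began 123 bases before the start. The Fzr1 and Cdc25b windows held CCAAT but not TTTGAA. The windows of Bub1, Mad2l1, Plk4, Cks2 and Nuf2, which are not printed, held no TTTGAA. Their signal was at least 4-fold lower on MK6 replicate 1 than on each other MK6 array. Bub1b, Cks1b, Cenpa, Smc2 and Mki67, also not printed, met the same fold and held TTTGAA. These matches are letters in a window and were not tested as binding sites.

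Deposited signals were scaled to a common trimmed mean of 161 and are given as scaled signals. Differences are in log2(signal + 15.2), which understates the change of dim genes, and errors after ± are standard errors of the difference in the limma fit over all 9 arrays. Before scaling, the trimmed means ran from 102 to 221, with MK6 replicates 1 and 3 lowest at 103 and 102. Fragmented RNA raises the signal of the 3' end of beta-actin over that of its 5' end, and this actin ratio ran from 0.957 to 1.09 over MKP, MK3 and MK4. It was 1.49, 1.33 and 3.21 on MK6 replicates 1, 2 and 3. Scaling leaves out any change in total RNA per cell, and in these sorted bulk samples fewer cells of a type and less RNA per cell cannot be told apart. The number of arrays limits the precision of every value.

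MK6 replicate 1 stood apart from all other arrays in these genes. The median over the 36 members of the log2 signal was 8.31 and 8.42 on the MKP arrays, 7.93 and 8.03 on MK3, and 8.11 and 7.89 on MK4. On MK6 replicates 1, 2 and 3 it was 6.53, 8.20 and 7.49. MK6 replicate 1 was the lowest of the 9 arrays for 32 of 36 members, against 16.6% of all tested genes, and the highest for 0 members, against 32.2% of all tested genes. The scaled signal was at least 2-fold lower on it than on each of the other two MK6 arrays for 23 members, against 5.86% of all tested genes. It was at least 4-fold lower for 14 members, against 1.32%. The median SD over members was 0.84 within MK6, against 0.12 in MKP, 0.13 in MK3 and 0.17 in MK4. MK6 replicate 3 had the next lowest member median. On it 28 of 36 members were below their MK4 mean, against 41% of all tested genes. Because MK6 replicate 1 stood apart, the MK6 medians over all members, and several single members, are given with and without it. The medians by role, the related lists and the other members are given with it only, and may rest on it.

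**Figure D1:**
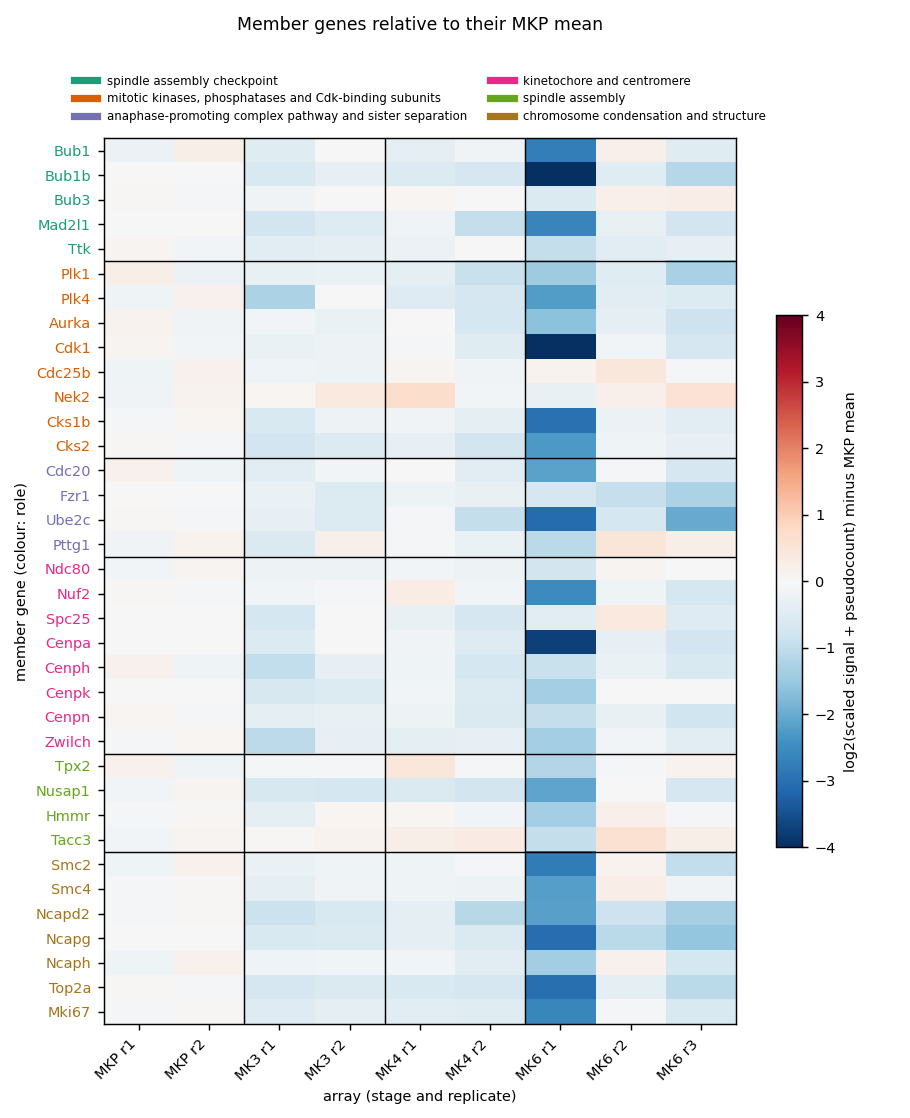
Log2(scaled signal + pseudocount) of each of the 36 tested members minus the mean of its 2 MKP arrays, by colour, on the 9 arrays (columns, stage and replicate; r1 to r3 are replicates). Rows are grouped and coloured by role. MK6 r1 is the lowest array for 32 of 36 members, while MK6 r2 lies close to the earlier stages.

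From MKP to MK3 nearly every member had a lower mean, by a small amount that passed the test for none. The median difference was -0.32, against -0.04 over all tested genes, and 34 of 36 members were below 0, against 54.2% of all genes. The lowest were Ncapd2, a condensin subunit, at -0.73 ± 0.40, Zwilch, which helps recruit dynein to kinetochores, at -0.69 ± 0.42, and Nusap1, a spindle microtubule-bundling protein, at -0.67 ± 0.51. Both MK3 arrays were below both MKP arrays for 23 members and above them for 0, beside 26.5% of all genes with MK3 below MKP and 19.4% with MK3 above. With limma, 0 members were called in either direction at an adjusted p below 0.05, where 0% of all genes were called lower and 0.0639% higher. The count at an unadjusted p below 0.05 was 0, beside 3.8% of all genes lower and 6.09% higher, and limma without the intensity trend and with robust variance also called 0. The smallest adjusted p of a member was 0.622. The standard errors of this and the next comparison pool the spread within every stage, MK6 included. The median SD over members was 0.84 in MK6, against 0.12 in MKP and 0.13 in MK3. With only the MKP and MK3 arrays in the fit, 0 members were called, beside 2.17% of all genes called in either direction.

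From MK3 to MK4 the members showed no common shift. The median difference was 0.05, the same as the 0.05 over all genes, with 13 of 36 below 0. Plk1, the kinase that drives many steps of mitosis, was lower on both MK4 arrays than on both MK3 arrays, at -0.34 ± 0.34. It was the only member with that order, beside 12.7% of all genes. Ttk, Cdc25b, Cenpk, Tpx2 and Tacc3, 5 of 36 members, were higher on both, beside 17.6% of all genes. With limma, 0 members were called, beside 0.0106% of all genes called lower and 0% higher, and the count at an unadjusted p below 0.05 was 0, beside 2.11% of all genes lower and 1.55% higher. Both other variance models called 0. The median turned to -0.05 with arrays scaled to a common median, to -0.07 without MK3 replicate 1 and to -0.04 without MK4 replicate 1, so it has no stable sign.

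Between MK6 and MKP, 3 members fell and 0 rose in limma at an adjusted p below 0.05, beside 3.03% of all genes called lower and 2.81% called higher. They were Ncapg and Ncapd2, of the condensin complex, and Fzr1, which encodes Cdh1, the second activator of the anaphase-promoting complex. The median difference of the 36 members was -0.94, against 0.13 over all genes, and 34 members were below 0, against 40.9% of all genes. All 3 MK6 arrays were below both MKP arrays for 19 members, beside 18.8% of all genes, and above them for 0 members, beside 24.5%. At an unadjusted p below 0.05, 10 of 36 members were lower, beside 11.2% of all genes, and 0 were higher, beside 12.7%. Of the 36 members, 30 had their highest stage mean in MKP, against 27.2% of all tested genes. The exceptions were Bub3, Nek2, Nuf2, Tpx2 and Tacc3, highest in MK4, and Cdc25b, highest in MK6.

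The size of this difference turned on MK6 replicate 1. Without it the median was -0.36, 27 of 37 members were below 0 (Cenpe then passed the filter), and 2 were called lower, Fzr1 and Ncapg, beside 3.5% of all genes. Without MK6 replicate 2 the median was -1.27 and 12 members were called lower, beside 5.76% of all genes. Without MK6 replicate 3 the count was 0, beside 0.721%, with a median of -0.98. Leaving out either MKP array left 1 array in that stage. The median was -0.83 without MKP replicate 1 and -0.87 without MKP replicate 2. It was -0.94 without any single MK3 or MK4 array. The count of called members was 0 with no filter on low values, without the intensity trend, or with only the arrays of both stages in the fit. In these settings 1.66%, 1.99% and 2.01% of all genes were called lower. With MK6 replicate 1 as the only MK6 array the median was -1.87, and with MK6 replicate 2 as the only one it was -0.10.

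**Figure D2:**
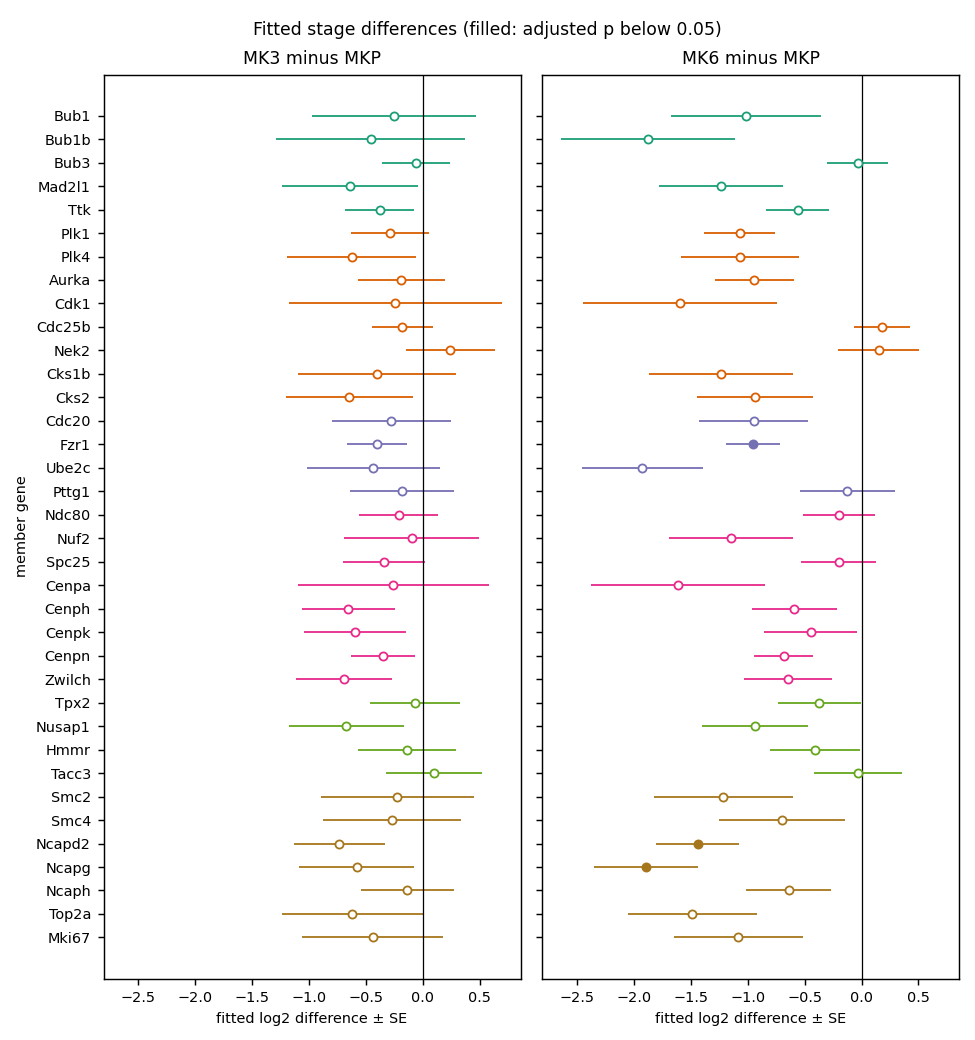
Fitted log2 differences of MK3 minus MKP (left) and MK6 minus MKP (right) with bars of 1 standard error, for the 36 tested members, coloured by role as in the heatmap of members by array. Filled points have an adjusted p below 0.05. These are Fzr1, Ncapd2 and Ncapg in MK6 minus MKP, and 34 of 36 members lie below 0 in each panel.

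The step from MK4 to MK6 shares the MK6 arrays with the comparison above. Its median was -0.49, against 0.09 over all genes, and 33 of 36 members were below 0. All MK6 arrays were below both MK4 arrays for Ttk, Fzr1, Nuf2 and Ncapg, 4 members beside 9.88% of all genes, and above them for 0 members, beside 14.8%. With limma, 0 members were called, beside 0.0106% of all genes in each direction. At an unadjusted p below 0.05, 4 of 36 members were lower, beside 5.63% of all genes, and 0 higher, beside 4.95%. The 4 were Ncapg at -1.40 ± 0.46, Ube2c at -1.42 ± 0.53, Nuf2 at -1.24 ± 0.54 and Fzr1 at -0.71 ± 0.24. Both other variance models called 0. Taken singly, MK6 replicate 1 minus the MK4 mean had a median of -1.39 with 25 members below -1, where 7.46% of all genes were below -1. MK6 replicate 2 had a median of 0.19 with 10 members below 0, and MK6 replicate 3 a median of -0.20 with 28 below 0. Without MK6 replicate 1 the MK6 minus MK4 median was -0.0015, with 19 of 37 members below 0. MK6 replicate 2 was not below the lowest MK3 or MK4 array for 31 members, MK6 replicate 3 for 20 and MK6 replicate 1 for 3.

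Among the condensation genes 2 of 7 tested members were called, and all 7 were lower in MK6 than in MKP, with a median of -1.21. Of these, only Smc4 was above 0 without MK6 replicate 1, at 0.06. Ncapg, the HEAT-repeat subunit G of condensin I, read 235 and 232 on the MKP arrays, 150 and 153 on MK3, 173 and 151 on MK4, and 14.7, 102 and 70.4 on MK6. Every MK6 array was below every earlier array, and MK6 replicate 1 was the lowest. Ncapg fell by 1.89 ± 0.46 between MKP and MK6 (adjusted p = 0.0387), and still fell by 1.32 without MK6 replicate 1 (adjusted p = 0.0144). Its other probe set gave -0.83, with an adjusted p of 0.349 over all probe sets, and the mean of both gave -1.36 (adjusted p = 0.12). Ncapd2, subunit D2 of the same complex, read 304 and 321 on MKP, 165 and 201 on MK3, 234 and 136 on MK4, and 58.1, 170 and 114 on MK6. Its MKP arrays were above all others, while MK4 and MK6 overlapped. Ncapd2 fell by 1.44 ± 0.36 (adjusted p = 0.0444), and without MK6 replicate 1 the difference was -1.09 with an adjusted p of 0.0519.

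Top2a, the topoisomerase that untangles sister DNA, read 1198 and 1146 on MKP, 729 and 788 on MK3, 755 and 730 on MK4, and 132, 895 and 547 on MK6. The step down between MKP and the middle stages was seen on every array, and MK6 replicate 2 was above all MK3 and MK4 arrays. The MK6 minus MKP difference of Top2a was -1.49 ± 0.57 (adjusted p = 0.141). Smc2 and Smc4, the ATPases of condensin, differed by -1.21 ± 0.61 and -0.70 ± 0.55. For Smc4 a dimmer probe set was called at -1.86 (adjusted p over all probe sets = 0.0361), while the brighter one used here was not. Ncaph, the kleisin of condensin I, differed by -0.64 ± 0.37, and Mki67, which coats mitotic chromosomes, by -1.08 ± 0.57. Of the related condensin II genes on the array, Ncapg2 was at -0.73 and Ncaph2 at -0.03, and 0 of the 2 were called.

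In the anaphase-promoting complex pathway, 1 of 4 tested members was called and all 4 were below 0, with a median of -0.95. Only Pttg1 was above 0 without MK6 replicate 1, at 0.36. Fzr1, the Cdh1 activator that keeps the ligase active from late mitosis through G1, read 269 and 271 on MKP, 220 and 182 on MK3, 232 and 218 on MK4, and 165, 135 and 103 on MK6. It was the one called member in which MK6 replicate 1 was the highest of the 3 MK6 arrays, and all MK6 arrays were below all earlier ones. Fzr1 fell by 0.96 ± 0.24 (adjusted p = 0.0429), and by 1.11 without MK6 replicate 1 (adjusted p = 0.0216). Ube2c, the ubiquitin-conjugating enzyme that works with the complex, read 859 and 788 on MKP, 650 and 562 on MK3, 780 and 421 on MK4, and 84.4, 504 and 191 on MK6. MK6 replicates 1 and 3 were both below every earlier array. Ube2c had the largest difference of any member, at -1.93 ± 0.53, and did not pass (adjusted p = 0.0591). Cdc20, the mitotic activator, differed by -0.95 ± 0.48, and Pttg1, which encodes securin, by -0.12 ± 0.42, with -0.74 and -0.63 from its dimmer probe sets.

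None of the 5 tested members of the spindle assembly checkpoint was called, and all 5 were below 0 in MK6 minus MKP, with a median of -1.02. Bub3 alone was above 0 without MK6 replicate 1, at 0.24. Bub1b, which encodes BubR1 of the checkpoint complex, read 493 and 473 on MKP, 314 and 384 on MK3, 326 and 298 on MK4, and 15.8, 344 and 209 on MK6. MK6 replicate 1 lay far below every other array, and MK6 replicate 2 lay within the range of MK3 and MK4. The difference of Bub1b was -1.88 ± 0.76 (adjusted p = 0.164), and -0.81 without MK6 replicate 1 (adjusted p = 0.0895). Mad2l1, which encodes Mad2, the checkpoint protein that binds Cdc20, read 487 and 475 on MKP, 276 and 335 on MK3, 431 and 239 on MK4, and 65.1, 390 and 274 on MK6. MK6 again overlapped MK3 and MK4, with MK6 replicate 1 the lowest array. The difference of Mad2l1 was -1.23 ± 0.55 (adjusted p = 0.198), and -0.54 without MK6 replicate 1. The kinase Bub1 differed by -1.02 ± 0.66, the kinase Ttk (Mps1) by -0.56 ± 0.28, and Bub3, the WD-repeat partner of the Bub proteins, by -0.04 ± 0.27.

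Among the mitotic kinases, phosphatases and Cdk-binding subunits 0 of 8 were called and 6 were below 0, with a median of -1.01. Cdk1, the kinase that drives entry into mitosis, read 954 and 833 on MKP, 735 and 770 on MK3, 849 and 628 on MK4, and 41.1, 831 and 552 on MK6. MK6 replicate 2 was within the range of the earlier stages, while MK6 replicate 1 was far below every other array and under the filter of 46.7. Cdk1 had the largest MK6 SD of all members (2.11, n = 3), and its MK6 minus MKP difference was -1.60 ± 0.85 (adjusted p = 0.271). Without MK6 replicate 1 it was -0.39. Cks1b, a small subunit that binds Cdk1, read 1767 and 2014 on MKP, 1238 and 1636 on MK3, 1696 and 1451 on MK4, and 224, 1586 and 1359 on MK6. Only MK6 replicate 1 stood clear of the other arrays, and the difference was -1.24 ± 0.64 (adjusted p = 0.256), or -0.36 without that array. Plk1 differed by -1.07 ± 0.31 (adjusted p = 0.0696), Plk4, which duplicates centrioles, by -1.07 ± 0.52, Aurka, the centrosomal Aurora kinase, by -0.94 ± 0.35, and Cks2 by -0.93 ± 0.51. Nek2, which acts in centrosome separation, and the phosphatase Cdc25b were the 2 members above 0, at 0.15 ± 0.36 and 0.18 ± 0.25. Cdc25b read 140, 176 and 120 on the MK6 arrays, within or above the 107 to 142 of the earlier stages.

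At the kinetochore and centromere, 0 of 8 were called and all 8 were below 0, with a median of -0.62. Of these, only Ndc80 and Cenpk were above 0 without MK6 replicate 1, at 0.06 and 0.01. Cenpa, the centromeric histone H3 variant, read 322 and 333 on MKP, 220 and 335 on MK3, 296 and 225 on MK4, and 10.4, 257 and 186 on MK6. MK6 replicate 1 was below the pseudocount, and MK6 replicate 2 lay inside the range of the earlier stages. The difference of Cenpa was -1.61 ± 0.76 (adjusted p = 0.224), and -0.55 without MK6 replicate 1. Nuf2, a subunit of the Ndc80 complex that grips microtubules, read 121 and 113 on MKP, 107 and 111 on MK3, 148 and 108 on MK4, and 7.55, 102 and 65.4 on MK6. All 3 MK6 arrays were below all earlier ones, MK6 replicate 2 only slightly. The difference of Nuf2 was -1.15 ± 0.54 (adjusted p = 0.225), and -0.45 without MK6 replicate 1. Its partners Ndc80 and Spc25 were both at -0.20, with standard errors of 0.32 and 0.33. The inner kinetochore genes Cenph, Cenpk and Cenpn were at -0.59, -0.45 and -0.69, and Zwilch at -0.64. Cenph and Spc25, like Cdc25b, were lowest on an MK3 array and not on MK6 replicate 1.

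The 4 spindle assembly members included 0 called genes and had the median nearest 0 of all roles, -0.39, with all 4 below 0. Without MK6 replicate 1 only Nusap1 stayed below 0, with Tpx2, Hmmr and Tacc3 at 0.03, 0.07 and 0.43. Nusap1 read 376 and 434 on MKP, 252 and 245 on MK3, 264 and 236 on MK4, and 81.9, 397 and 247 on MK6. MK6 replicate 2 was at the MKP level and MK6 replicate 3 at that of MK3 and MK4. The difference of Nusap1 was -0.94 ± 0.46 (adjusted p = 0.24), and -0.35 without MK6 replicate 1. Its dimmer probe set went the other way, at 0.63. Hmmr, a centrosomal and microtubule-binding protein, read 311 and 338 on MKP, 250 and 344 on MK3, 343 and 297 on MK4, and 116, 372 and 313 on MK6. Apart from MK6 replicate 1 the stages overlapped, and the difference of -0.41 ± 0.39 (adjusted p = 0.536) turned to 0.07 without that array. Its 3 dimmer probe sets gave -0.34, -0.53 and -1.35. The last of these read 192 and 125 on MKP and 64.2, 56.7 and 37.3 on MK6, with all MK6 arrays below both MKP arrays (adjusted p over all probe sets = 0.0531). Tpx2, which activates Aurka on the spindle, differed by -0.37 ± 0.36, and Tacc3, which stabilises spindle fibres, by -0.03 ± 0.39, with -1.11 and 0.50 from its other probe sets.

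**Figure D3:**
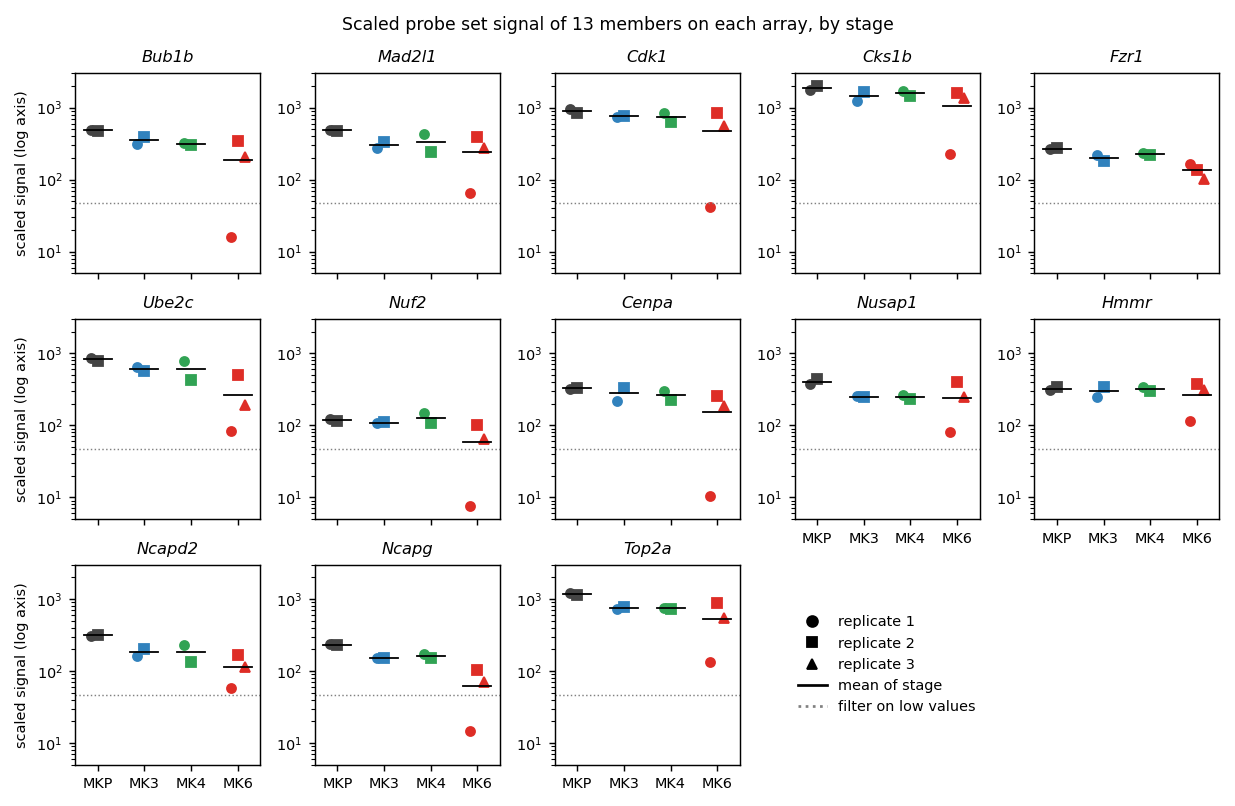
Scaled signal (log axis) on each array by stage for the 13 members whose values are given array by array; horizontal bars are stage means and the dotted line is the filter of 46.7. MK6 replicate 1 (red circle) is the lowest array for all of them but Fzr1, where MK6 replicate 3 is lowest at 103.

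The 36 tested members had 57 probe sets above the filter in all, and 15 of these members had several. In MK6 minus MKP, 52 of the 57 were below 0 and 4 were called lower, beside 4.27% of all tested probe sets. The 4 were those of Ncapg, Ncapd2, Fzr1 and the dimmer set of Smc4. Probe sets of a gene differed in sign for Nusap1, Tacc3 and Bub3. On MK6 replicate 1, 13 members were at or below the filter, and Bub1, Nuf2, Cenpa and Ncapg were below the pseudocount, so their differences on that array are understated. The brightest probe sets of Tacc3 and Ncaph carry the suffix _x_at, which the manufacturer gives to sets that may bind other transcripts.

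Genes that work beside the members were counted from lists of other mitotic genes, each in MK6 minus MKP by limma. In this and the next paragraph, fell and rose mean called lower and called higher, beside 3.03% and 2.81% of all genes. Of 9 cohesin and cohesion genes, 1 fell (Sgo1, which protects centromeric cohesin, -2.13 ± 0.41), and the median was -0.69. Of 11 subunits and enzymes of the anaphase-promoting complex, 1 fell (Ube2s, -1.64 ± 0.32) at a median of -0.24. Of 14 other kinetochore and centromere genes, 1 fell (the checkpoint gene Mad1l1, -1.71 ± 0.42) at a median of -0.24. Of 14 mitotic cyclins and regulators, 1 fell (Pkmyt1, a kinase that inhibits Cdk1, -2.19 ± 0.43) at a median of -0.49. Of 5 mitotic kinesins, 1 fell (Kif11, the spindle bipolarity motor, -1.30 ± 0.29) at a median of -0.59. None of 12 chromosomal passenger and cytokinesis genes was called, at a median of -0.82. Ect2, which triggers the contractile ring, was at -1.68 ± 0.52 (adjusted p = 0.0869). No gene of these lists was called higher. The largest difference above 0 among them was that of Mad2l1bp, at 0.79 ± 0.24 (adjusted p = 0.0859). MK6 replicate 1 was the lowest array for 8 of the 14 cyclins and regulators and 8 of the 12 passenger and cytokinesis genes, but for 4 of 9 cohesin genes and 4 of 11 genes of the anaphase-promoting complex.

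Markers of other cells moved between the MK6 arrays as well. The mean log2 signal of 10 neutrophil and granulocyte markers was 11.67 and 11.44 on MKP, 11.04 and 11.17 on MK3, 10.61 on both MK4 arrays, and 8.17, 10.52 and 7.90 on MK6. In MK6 minus MKP, 6 of the 10 fell and the median was -3.08. The marker mean was lowest on MK6 replicates 3 and 1. The member median was lowest on MK6 replicate 1, at 6.53, and next lowest on MK6 replicate 3, at 7.49. Elane, the neutrophil elastase and the marker with the largest difference, read 31.8, 620 and 36.6 on the MK6 arrays. Not all of the 10 were low on MK6 replicate 1. Ltf read 694 there, against 527 and 350 on MK4, and S100a9 read 5334, against 7032 and 5318. The 9 megakaryocyte markers measured had a mean of 9.53 to 9.61 on the MKP arrays and MK3 replicate 1, 10.66 to 10.94 on MK3 replicate 2 and MK4, and 10.13, 10.34 and 9.64 on MK6, and 3 of them rose (Vwf, Itga2b and Pf4). The marker with the largest difference went the other way and did not pass, Itgb3 at -2.01 ± 0.55 (adjusted p = 0.0564), and Ppbp was at -0.66 ± 0.35. Itga2b, which encodes the sorted antigen CD41, was present on every array. Of 8 monocyte and macrophage markers 2 rose and 1 fell, with array means between 9.19 and 10.81, of 6 mast cell and basophil markers 2 fell, with means of 6.27 to 7.97, and of 5 erythroid markers 0 were called, with means of 6.13 to 6.76. No marker named here was at 0. The part of these markers, of the trimmed mean and of the actin and Gapdh ratios in the member differences was not tested.

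**Figure D4:**
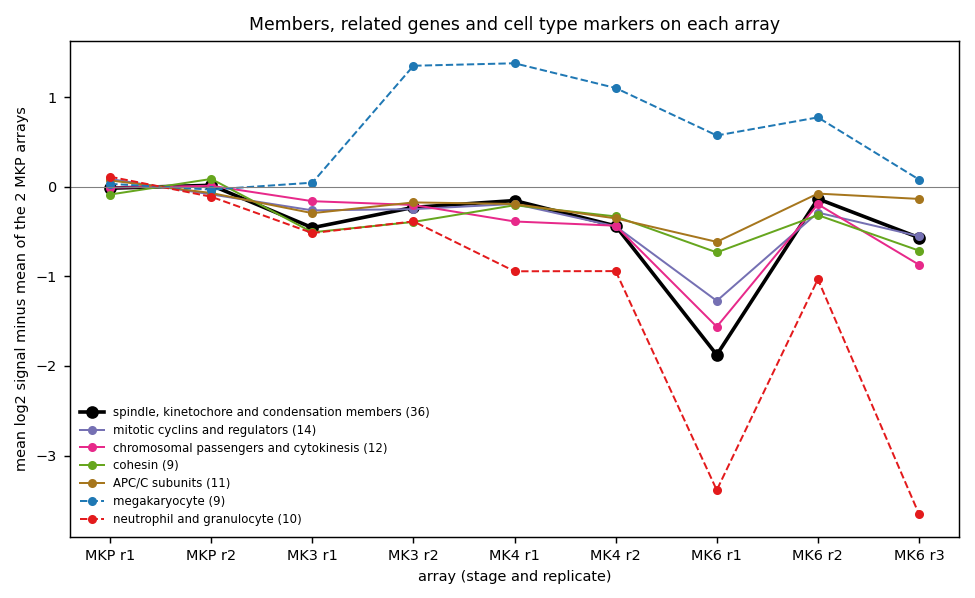
Mean log2 signal of the 36 members (thick black), of 4 lists of related mitotic genes, and of megakaryocyte and neutrophil markers (dashed), each minus its mean on the 2 MKP arrays, for the 9 arrays; the number of tested genes is in the key, and lines join arrays only to guide the eye. Members are lowest on MK6 r1, and the neutrophil marker mean is lowest on MK6 r3 and next lowest on MK6 r1.

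Members were also set side by side by their promoters. The 19 tested members with TTTGAA in the window had a median MK6 minus MKP difference of -1.08, and the 14 without it -0.79. For MK6 replicate 1 minus MK6 replicate 2 the medians were -1.98 and -1.57. The 25 with CCAAT had a median MK6 minus MKP difference of -0.96 and the 8 without it -0.79, while for MK6 replicate 1 minus MK6 replicate 2 the order was the opposite, -1.56 and -1.69. These are descriptions of members with and without the letters, with no test.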

How the data were processed

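RNA from 9 samples was labelled through oligo-dT-primed cDNA and biotinylated cRNA and read on single-colour Affymetrix MOE430A arrays. The values are the deposited probe set intensities on a linear scale, which the submitters' processing notes say the authors made with MAS5. Its version is not given in the sources used here, nor are its settings. Detection calls did not enter.

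Stages were taken from the titles. The trimmed means (2% off each end) differed by more than the tolerance of 10%, so each array was multiplied to a common trimmed mean. Signals were taken as log2 with a pseudocount at the 20th percentile of scaled values. A probe set was kept if it exceeded the 40th percentile on at least 2 arrays, and the probe set with the highest mean stood for its gene. Control probe sets (64), those naming several genes (691) and those naming none (1555) were left out; 20351 of the 20380 others were found in the reference gene table. All 9 arrays entered 1 limma model with a mean per stage (limma 3.58.1 in R 4.3.3, with lmFit and an eBayes trend on intensity). The model left 5 degrees of freedom and was tested on simulated data. These data had 1 spread per gene over all stages and independent genes, so they cannot show how the model handles the wider MK6 spread. A gene was called when its Benjamini-Hochberg adjusted p was below 0.05 over all 9397 genes within a comparison. The comparisons share arrays and are not independent.

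Array-by-array values are given for called members and for the 2 members of each role that differed most, in either direction, between MK6 and MKP. Cdc25b and other members named for single values were chosen after their values were seen. The members, the lists of related genes and cell markers, and the comparisons were chosen with earlier results of these data known. The alternatives run were a halved and a doubled pseudocount, no filter and a stricter one, 3 other scalings, 2 other treatments of several probe sets, 2 other variance models, a fit of the 2 stages alone, each array left out in turn, and MK6 replicates 2 and 3 left out together. Leaving out MK6 replicates 1 and 3 together was chosen after seeing the data.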

Additional observations from a re-analysis of the deposited data

How the results depend on the processing

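In MK6 against MKP the 3 called members became 0 with no filter on low values, without the intensity trend or with only the arrays of the 2 stages. They became 1 with quantile normalization, a common median or no scaling. In these settings, in order, 1.66%, 1.99%, 2.01%, 2.75%, 2.47% and 1.53% of all genes were called lower. The count was 27 without MK6 replicates 2 and 3, 0 without MK6 replicates 1 and 3, and 0 to 12 over single arrays left out. The 2 fits that left out 2 MK6 arrays kept 1 MK6 array, so their spread came only from the other stages. Their counts therefore cannot decide how many members fell. The share of all genes called lower also rose without MK6 replicates 2 and 3, and fell without MK6 replicates 1 and 3. The cause of these changes in count was not tested. In that comparison the median member difference was -1.87 without MK6 replicates 2 and 3, and -0.10 without MK6 replicates 1 and 3. It was -1.27 to -0.36 over single arrays left out, and it stayed below 0 under every alternative run. In MK6 against MK4 the count was 20 without MK6 replicates 2 and 3, beside 3.23% of all genes called lower, and 0 to 1 over single arrays. The MK6 against MK4 median was -1.06 with no scaling, -1.39 without MK6 replicates 2 and 3, and 0.18 without MK6 replicates 1 and 3. Hmmr in MK6 against MKP turned from -0.41 to 0.19 without MK6 replicates 1 and 3 and, over single arrays left out, ran from -0.71 (without MK6 replicate 2) to 0.0705 (without MK6 replicate 1). Without scaling, the median of all genes in MK6 minus MKP moved from 0.13 to -0.20, while the member median minus that of all genes was -1.07 with and -1.05 without scaling. Of all calls in that comparison, 51.9% were lower, and 71.9% without scaling. MK3 against MKP and MK4 against MK3 had 0 called members under every alternative run. The 2 or 3 arrays of a stage limit the precision of every value, and the median SD over members within MK6 was 0.84. No paired analysis was possible because the labels give no replicate numbers that stages share.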

Other observations

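MK4 replicate 2 was below MK4 replicate 1 for 31 of 36 members, with a median difference of -0.23, against 56.7% of all tested genes and a median of -0.06. MK3 replicate 2 was above MK3 replicate 1, with a median of 0.12 and 7 of 36 members below 0. The 2 MKP arrays differed by a median of 0.05, with 16 members below 0. Within MK6, replicate 3 was below replicate 2 for 32 of 36 members, at a median of -0.46, against 0.12 over all genes.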
